A study of Arabidopsis thaliana with 12 samples.

Results

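The 50 genes described here are those of the Arabidopsis thaliana array series whose probe names a single gene and whose mean signal was at least 2-fold higher in the prors1 mutant than in the wild type (WT). Of the 3439 probes on the array, 692 were annotated to 1 gene, and 56 of these (8.09%) had a mean prors1 minus mean WT difference of 1 or more on the log2 scale, against 271 of all 3439 probes (7.88%). The selection then left out 4 loci by name, AT5G39980, AT3G49740, AT1G31790 and AT5G07110 (PRA1.B6), and 2 probes, for AT4G17070 and AT4G31530, that were among the 100 with the highest mean deposited WT signal. Each of the 50 remaining probes stood for a different locus. Because the genotype difference itself chose these genes, the difference and its direction are given as a description and no p-value is given for a member.

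The study compared 6 samples of the prors1 mutant, which the labels describe as without prolyl-tRNA synthetase, with 6 samples of WT, both in the Columbia 0 ecotype. Total RNA was measured on single-channel arrays, 1 per sample, and samples carried replicate numbers 1 to 6 in each genotype. The labels give no tissue, age, growth condition or allele, and do not say whether replicates were separate plants, so the spread between samples may be technical. In RNA from whole samples, fewer cells of a type and less RNA per cell cannot be told apart. PRORS1 itself was not among the annotated probes, and its level is not analysed here. The signal was not distributed alike in the genotypes: array medians were 0.250 to 0.444 in prors1 and 0.135 to 0.169 in WT on the deposited scale, which ends just under 100, and 6.25% to 9.19% of probes per array were deposited at 0 in prors1, against 10.7% to 11.5% in WT. Member values below are therefore given as deposited, after the quantile scaling used for the selection, or both, and each is named as such or as scaled.

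PRORS1 charges transfer RNA with proline and is imported into both plastids and mitochondria, the compartments that still translate their own small genomes. Most proteins of these organelles are nevertheless encoded in the nucleus, among them the RNA-binding, RNA-modifying and transcription factors that act on organelle genes. Nuclear transcript levels are known to respond to the state of organelle gene expression, which is called retrograde signalling.

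The 50 genes had a median log2 difference of 1.31, and 36 of them lay between 1 and 1.5. The difference exceeded 2 for 4 members: AT3G11150, AT3G15140, AT5G50350 and AT4G35660, the first 3 with WT signal at or near the floor described next. The median difference over all 692 single-gene probes was 0. Values were raised to an intensity floor of 0.0467, which is -4.42 on the log2 scale. Where WT lies at the floor throughout, the size of a difference may be understated. Where only some WT arrays are at the floor, they can instead enlarge the difference, as for AT3G13150 below. In WT, 58 of the 300 member values (19.3%) were at the floor, against 14.5% over all single-gene probes, and in prors1 it was 9 of 300 (3.0%) against 15.1%. The selection favours low WT and high prors1 values, so these shares are no separate finding. At least 1 array was at the floor for 21 members, and 29 members were measured above it on all 12 arrays.

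**Figure D1:**
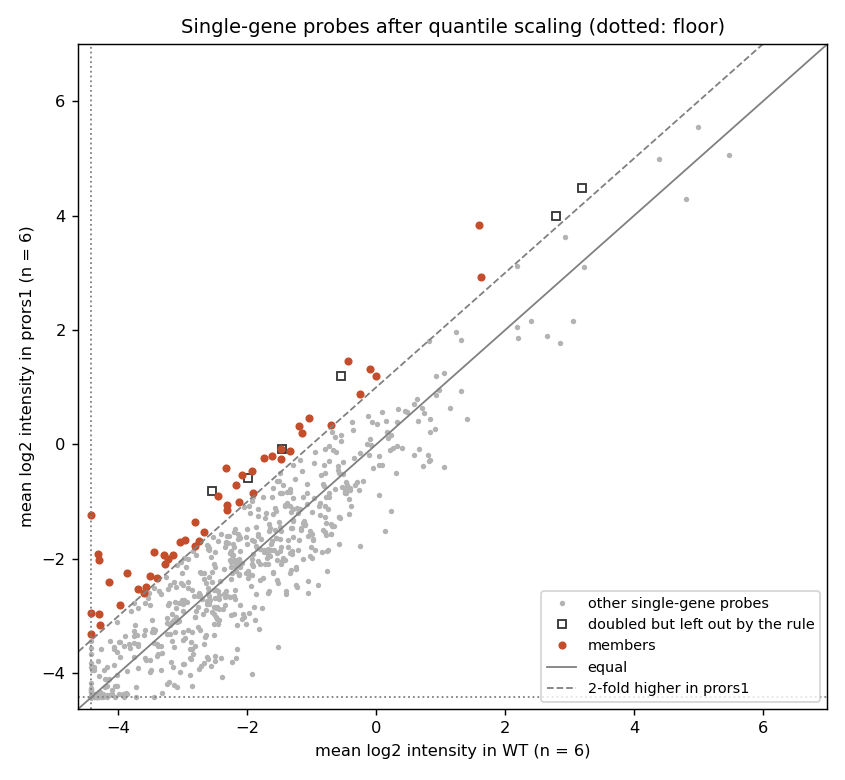
Mean log2 intensity after quantile scaling in prors1 (vertical) against WT (horizontal), n = 6 each, for the 692 single-gene probes. The 50 members (filled) lie on or above the dashed line of a 2-fold difference, from WT means at the floor of -4.42 up to 1.63 for AT4G19900, and open squares mark the 6 probes that were doubled but left out.

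After quantile scaling, the 6 prors1 values lay above all 6 WT values for 34 of the 50 members, and the genotypes overlapped for 16. Among all single-gene probes 10.5% were higher without overlap, and the selection on the same contrast makes the higher share of the members no separate finding. As deposited, 41 of the 50 did not overlap, where 37.3% of the single-gene probes were higher without overlap.

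**Figure D2:**
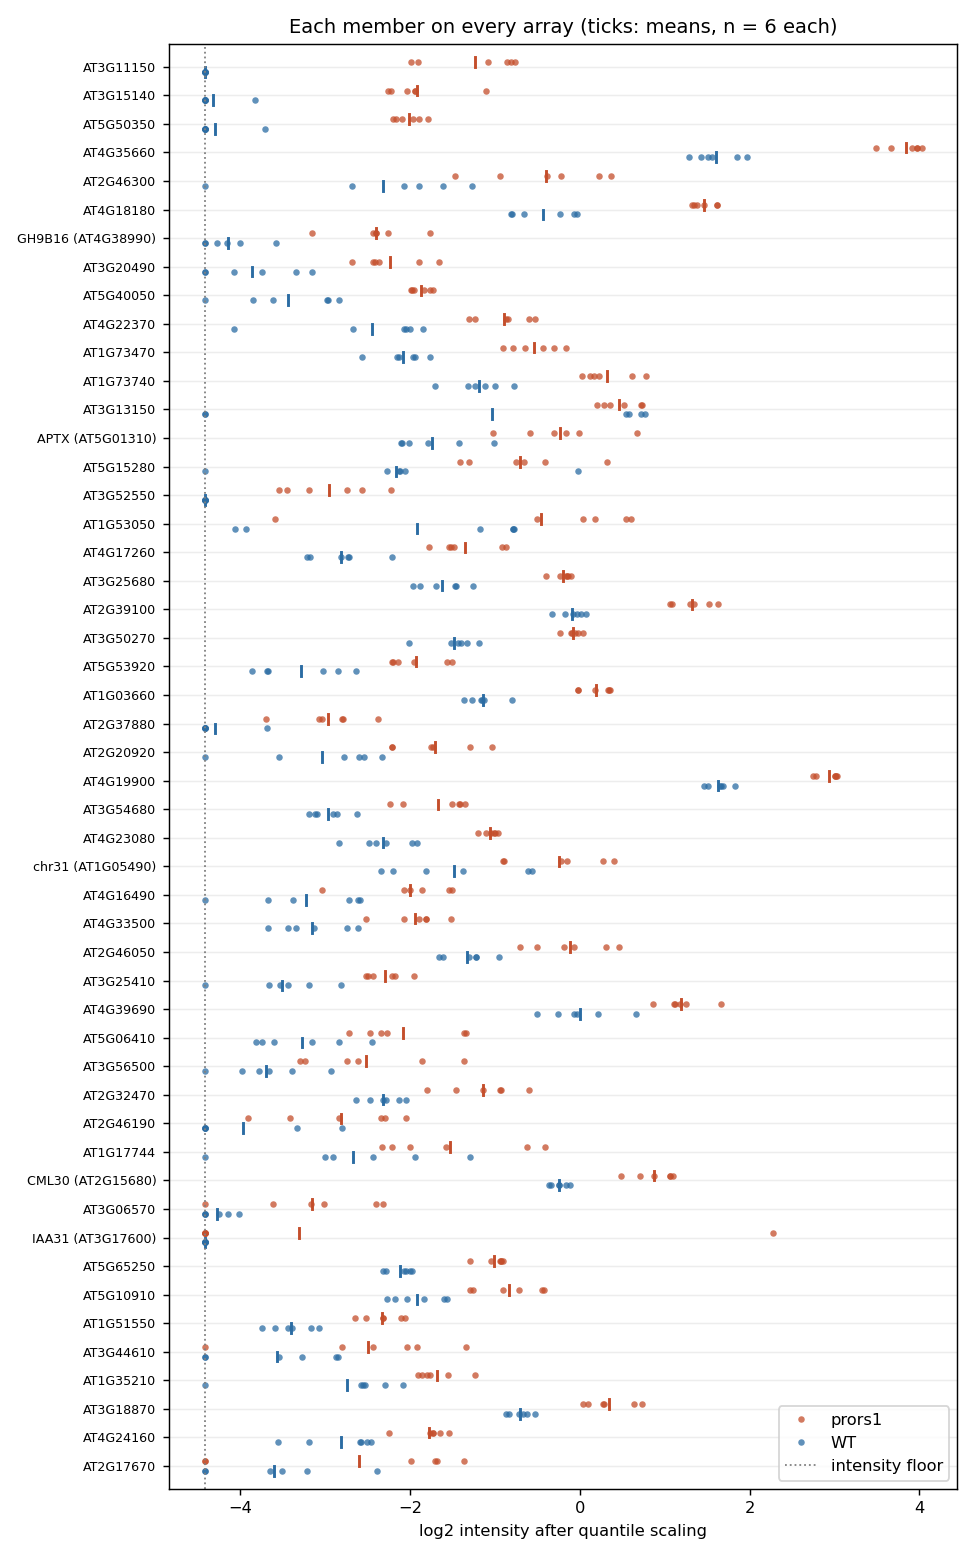
Log2 intensity after quantile scaling (horizontal) of each of the 50 members on each of the 12 arrays, prors1 above WT in every row, with short vertical ticks at the means (n = 6 each) and a dotted line at the floor. In most rows the genotypes separate, while AT3G13150, AT1G53050 and IAA31 have a few arrays far from the rest of their group.

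From general knowledge of these genes, a role could be stated for 31 members and a protein location for 17. Of those 17 proteins, 11 belong to mitochondria or plastids, 3 to the nucleus, 2 to the cell wall and 1 to the cytosol. Of the 11, 3 were placed in mitochondria and 3 in plastids, and 5 were listed only as mitochondrion or plastid. Locations were not assigned for the other single-gene probes, so it is not known whether these counts differ from those of the array. The classes used below were drawn up for this description with the members known, and the same was not done for the other single-gene probes, so no share is compared with the rest. Overlap within a class is described for 3 to 19 genes, all chosen on the genotype contrast. Higher without overlap were 34 of all 50 members and 10.5% of single-gene probes, and no class is set apart by its count. Only 5 members carry a symbol other than their locus name in the gene table (10%, against 13.3% of the 690 single-gene loci matched to it).

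The largest class, with 8 members, holds genes for organelle gene expression, with a median log2 difference of 1.28 and a range of 1.0 to 2.40. AT3G15140 encodes a plastid exonuclease of the ERI-1 family that takes part in processing chloroplast ribosomal RNA. Its deposited signal was 0.206, 0.357 and 0.712 (lowest, median and highest) in prors1, against 0, 0.0108 and 0.0363 in WT, where 2 WT arrays were listed at 0. After scaling, prors1 ranged from -2.26 to -1.11 while 5 of 6 WT arrays sat at the floor, so the difference of 2.40 is set by the floor, and the highest array of each genotype carried the same replicate number, 4. AT5G10910 encodes the chloroplast methyltransferase that modifies 16S ribosomal RNA. Its deposited values were 0.418, 0.734 and 1.02 in prors1, against 0.107, 0.168 and 0.226 in WT, and its scaled means were -0.84 ± 0.38 in prors1 and -1.92 ± 0.29 in WT (SD, n = 6 each), 2.11-fold apart without overlap. AT5G53920 resembles the enzyme that methylates ribosomal protein L11 in Escherichia coli, and stood 2.56-fold higher, at -1.93 ± 0.32 in prors1 and -3.29 ± 0.51 in WT (SD, n = 6 each). AT3G18870 belongs to the family of mitochondrial transcription termination factors, DNA- and RNA-binding proteins of organelles, and was among the members nearest the threshold. Its deposited signal of 1.08, 1.38 and 1.89 in prors1, against 0.390, 0.432 and 0.574 in WT did not overlap, nor did its scaled values, which differed by 1.05 ± 0.13 (SE).

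The other 4 members of that class encode pentatricopeptide repeat proteins, which bind organelle transcripts in a sequence-specific way. AT2G46050 had deposited values of 0.656, 1.10 and 1.64 in prors1, against 0.189, 0.303 and 0.367 in WT, and scaled means of -0.12 ± 0.45 in prors1 and -1.33 ± 0.26 in WT (SD, n = 6 each). The genotypes did not overlap for AT2G46050, but did for the other 3 of these genes. AT3G13150 was deposited at 1.31, 1.59 and 1.75 in prors1, against 0, 1.24 and 1.67 in WT. Its WT values were 0 on arrays 1 and 2, whereas arrays 3 to 6 had scaled values of 0.54 to 0.77, among or just above the prors1 values of 0.20 to 0.73. The difference of 1.5 therefore rests on WT replicates 1 and 2, and without replicates 1 and 2 of both genotypes it was -0.095. AT5G15280 ranged from -1.41 to 0.32 in prors1 and from -4.42 to -0.02 in WT, with WT replicate 3 at -0.02 inside the prors1 range and WT replicate 4 at the floor. AT2G17670, the member closest to the threshold at 1.0 ± 0.60 (SE), had prors1 replicates 5 and 6 and WT replicates 5 and 6 all at the floor, so that its difference came from samples 1 to 4 and was 1.51 without the last 2 numbers.

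Another 3 members serve organelle transport or structure. AT4G39690 encodes the mitochondrial inner-membrane protein that holds cristae junctions together. Its deposited signal was 1.94, 2.35 and 3.16 (lowest, median and highest) in prors1, against 0.509, 0.754 and 1.54 in WT, without overlap, and its scaled means were 1.20 ± 0.26 in prors1 and 0.00 ± 0.40 in WT (SD, n = 6 each), a 2.29-fold difference. AT3G25410 belongs to the bile acid:sodium symporter family, some of whose plant members sit in the plastid envelope. It was deposited at 0.173, 0.309 and 0.444 in prors1, against 0.00332, 0.0458 and 0.0668 in WT, and differed by 1.21 ± 0.23 (SE) after scaling, with WT replicate 5 at the floor and no overlap. AT5G06410 encodes a J-domain co-chaperone of iron-sulfur cluster assembly in mitochondria. It ranged from -2.72 to -1.34 in prors1 and from -3.82 to -2.45 in WT, a difference of 1.18 ± 0.30 (SE). Samples 5 and 6 were the highest of both genotypes for this gene, so the overlap of the pooled ranges came with differences of 1.14, 1.11 and 1.30 within samples 1-2, 3-4 and 5-6. CML30 (AT2G15680), a calmodulin-like protein found in mitochondria, had deposited values of 1.65, 2.07 and 2.27 in prors1, against 0.576, 0.689 and 0.785 in WT. Its scaled means were 0.88 ± 0.25 in prors1 and -0.25 ± 0.10 in WT (SD, n = 6 each), with no overlap. The other calmodulin-like gene with a probe of its own, CML41 (AT3G50770), had means of -1.56 ± 0.18 in prors1 and -1.83 ± 0.12 in WT (SD, n = 6 each). CML41 was higher in prors1 in 6 of 6 same-numbered pairs, with a mean difference of 0.27 ± 0.11 (SE). Its differences within samples 1-2, 3-4 and 5-6 were 0.35, 0.22 and 0.24. Samples of such a set resembled each other over the array, so the 6 pairs may not be 6 independent comparisons. The share of single-gene probes higher in all 6 pairs is not given here. In limma over the whole array the adjusted p of CML41 was 0.0570 with genotype alone, where 20.6% of single-gene probes were called higher at 0.05. In limma with the replicate number as a block it was 0.0332, where 24.6% were, so its call depends on including that block.

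**Figure D3:**
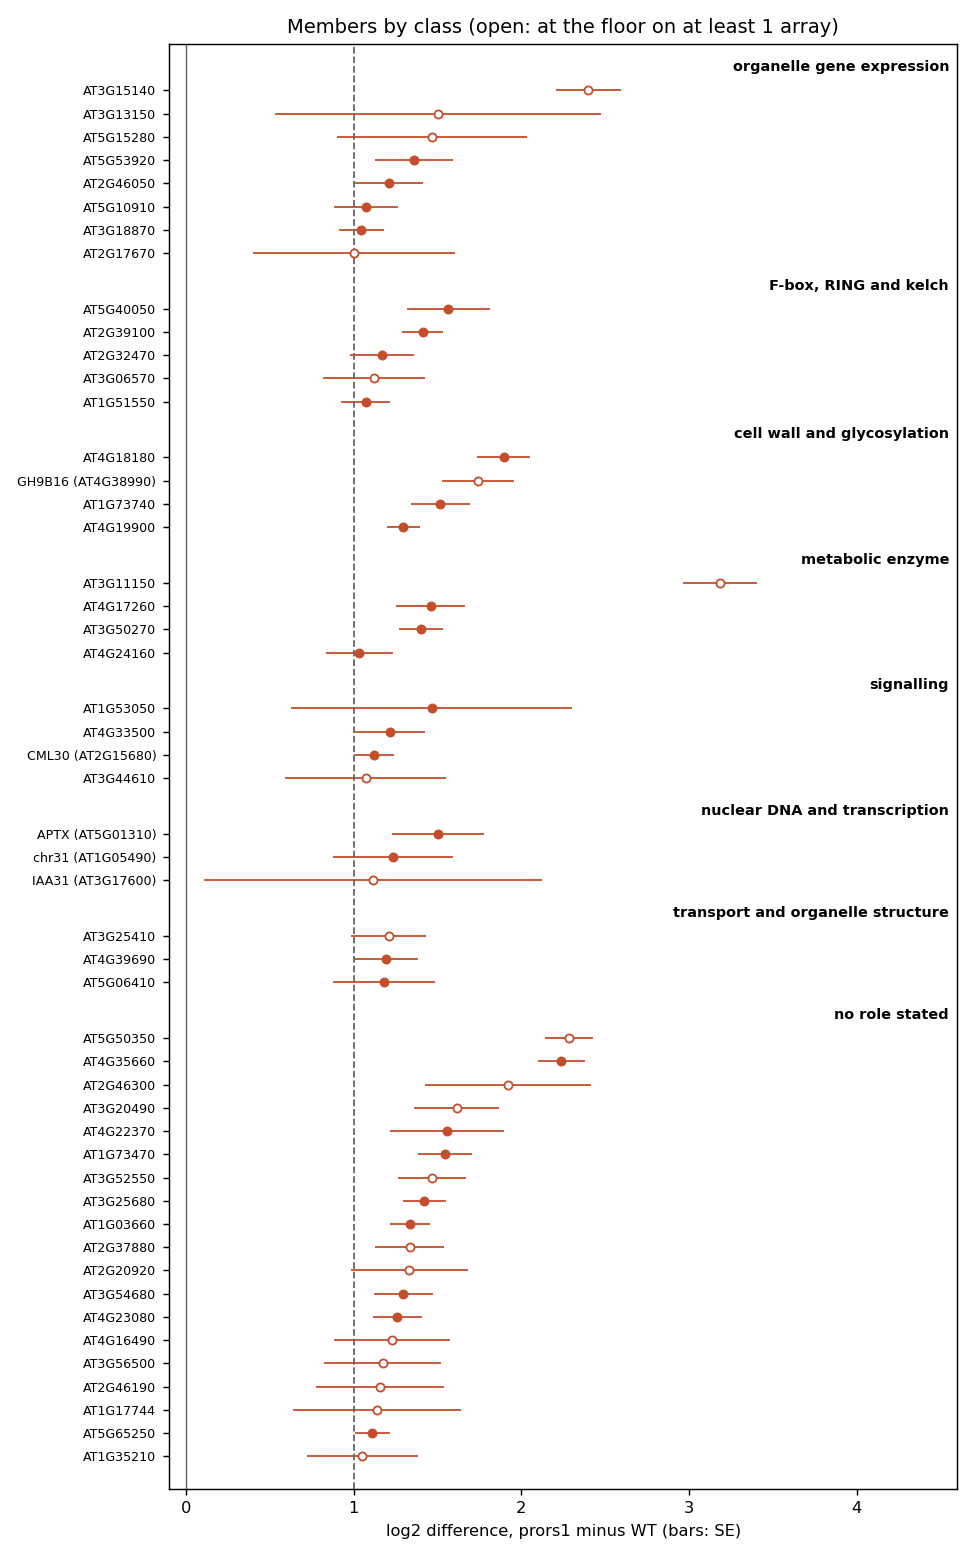
Log2 difference, prors1 minus WT, of the 50 members with its SE from the limma fit (horizontal), grouped by class, with open circles for the 21 members at the floor on at least 1 array. The wide bars belong to AT3G13150, AT1G53050 and IAA31, and the dashed line is the 2-fold threshold that every member passes by selection.

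The 3 members with nuclear proteins were among the 16 of 50 members that overlapped between the genotypes after scaling. APTX (AT5G01310) encodes aprataxin, which removes AMP from the ends of aborted DNA ligations. Its deposited values were 0.711, 0.982 and 1.8 in prors1, against 0.122, 0.166 and 0.359 in WT, which did not overlap, and its scaled means of -0.24 ± 0.57 in prors1 and -1.74 ± 0.44 in WT (SD, n = 6 each) came from ranges that crossed, at -1.03 for prors1 replicate 3 and -1.01 for WT replicate 2. The gene listed as chr31 (AT1G05490) encodes a chromatin remodelling protein of RNA-directed DNA methylation. It was deposited at 0.555, 1.07 and 1.6 in prors1, against 0.10, 0.222 and 0.564 in WT, and ranged after scaling from -0.91 to 0.40 in prors1 and from -2.34 to -0.56 in WT. Replicates 3 and 4 were the highest and replicates 5 and 6 the lowest in both genotypes, and the differences within samples 1-2, 3-4 and 5-6 were 1.41, 0.92 and 1.37. IAA31 (AT3G17600) belongs to the Aux/IAA family of repressors of auxin-responsive transcription. It was deposited at 0 on all 6 WT arrays and on 5 of the 6 prors1 arrays, and at 5.18 on the array of prors1 replicate 6. Its place among the members rests on that array alone: without replicate 6 its difference was 0.

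Besides CML30, 3 members act in signalling. AT1G53050 encodes a protein kinase and was deposited at 0.0806, 1.22 and 1.75 in prors1, against 0.0192, 0.366 and 0.463 in WT. Its scaled values overlapped, with prors1 replicate 6 at -3.59 and WT replicates 2 and 6 at -3.94 and -4.06 far below the rest of their groups. The difference was 1.47 ± 0.84 (SE). AT3G44610, an AGC-family protein kinase, also overlapped, at -4.42 to -1.34 in prors1 and -4.42 to -2.85 in WT, with prors1 replicate 6 and WT replicates 2 and 5 at the floor. AT4G33500 encodes a phosphatase of the 2C family, and its deposited signal was 0.254, 0.345 and 0.476 in prors1, against 0.0361, 0.0556 and 0.0912 in WT. The scaled groups did not overlap for this gene, at -1.94 ± 0.34 in prors1 and -3.16 ± 0.41 in WT (SD, n = 6 each).

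Among the 5 members of the F-box, RING and kelch class, whose proteins mostly direct other proteins to ubiquitination, 4 did not overlap (34 of all 50 members). AT5G40050, an F-box protein gene, was deposited at 0.251, 0.385 and 0.498 (lowest, median and highest) in prors1, against 0.0146, 0.0503 and 0.0790 in WT. After scaling it was -1.88 ± 0.11 in prors1 and -3.44 ± 0.63 in WT (SD, n = 6 each), which is 2.96-fold, without overlap. AT2G39100, with a RING domain, had 2.26, 2.65 and 3.34 in prors1, against 0.677, 0.782 and 0.870 in WT, and scaled means of 1.32 ± 0.23 in prors1 and -0.09 ± 0.15 in WT (SD, n = 6 each). The F-box genes AT2G32470 and AT1G51550 differed by 1.17 ± 0.19 and 1.07 ± 0.14 (SE) without overlap. The kelch-repeat F-box gene AT3G06570 overlapped, with 3 WT arrays and prors1 replicate 6 at the floor, and differences of 1.97, 1.33 and 0.06 within samples 1-2, 3-4 and 5-6.

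The 4 members for cell wall and glycosylation had a median difference of 1.63, and they were among the 34 of 50 members without overlap. AT4G18180 belongs to the polygalacturonase family, enzymes of pectin breakdown. Its deposited signal was 2.62, 2.84 and 3.13 (lowest, median and highest) in prors1, against 0.388, 0.635 and 0.790 in WT. The scaled values ranged from 1.32 to 1.62 in prors1 and from -0.81 to -0.04 in WT, with all 6 prors1 arrays close together and WT replicates 4 to 6 below WT replicates 1 to 3, and the means were 3.72-fold apart. GH9B16 (AT4G38990) encodes an endo-beta-1,4-glucanase that cuts cell wall glucans. Its deposited values were 0.109, 0.272 and 0.491 in prors1, against 0, 0.0163 and 0.0437 in WT, and 2 WT arrays were at 0, which puts WT at or just above the floor and may understate the difference of 1.74. Of the other 3 single-gene probes for this glycosyl hydrolase family, none passed limma's test over the whole array, with or without the replicate number as a block. The log2 differences of GH9B8, GH9B11 and GH9B12 were -0.32 ± 1.01, -0.37 ± 0.22 and -0.12 ± 0.29 (SE), with adjusted p of 0.828, 0.199 and 0.771. The mean for GH9B8 joins opposite parts, at -1.14, -1.47 and 1.65 within samples 1-2, 3-4 and 5-6. Its WT replicates 5 and 6 were at the floor. AT1G73740, of the UDP-glycosyltransferase superfamily, was deposited at 1.07, 1.31 and 1.92 in prors1, against 0.199, 0.296 and 0.423 in WT. Its scaled means were 0.32 ± 0.30 in prors1 and -1.19 ± 0.32 in WT (SD, n = 6 each), a 2.86-fold difference. AT4G19900, of a glycosyltransferase family named for alpha-1,4 linkages, had deposited values of 5.93, 6.91 and 8.03 in prors1, against 2.53, 2.86 and 3.63 in WT. Both genotypes were tight after scaling, at 2.93 ± 0.13 in prors1 and 1.63 ± 0.13 in WT (SD, n = 6 each), and lay 2.46-fold apart. With arrays divided by their medians instead, the log2 difference of AT4G19900 was only 0.10.

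Of the 4 metabolic enzymes, all among the 34 of 50 members without overlap, AT3G11150 had the largest difference of any member. It encodes an oxygenase of the 2-oxoglutarate and Fe(II)-dependent family. The WT signal was listed at 0 on all 6 arrays, whereas prors1 had 0.250, 0.668 and 0.854 (lowest, median and highest), so no fold is given. The scaled difference of 3.18 is measured from the floor. In prors1, replicates 5 and 6 were the lowest after scaling, at -1.99 and -1.90, against -1.09 to -0.76 for the other 4. AT4G17260 encodes L-lactate dehydrogenase, the cytosolic enzyme that reduces pyruvate to lactate. Its deposited signal was 0.345, 0.444 and 0.796 in prors1, against 0.0490, 0.0773 and 0.141 in WT, and its scaled means were -1.35 ± 0.37 in prors1 and -2.81 ± 0.37 in WT (SD, n = 6 each), 2.75-fold apart. AT3G50270, an acyltransferase of the HXXXD type, had values of 0.908, 1.18 and 1.22 in prors1, against 0.165, 0.247 and 0.279 in WT. It was one of the tighter members in prors1, at -0.08 ± 0.09 in prors1 and -1.48 ± 0.28 in WT (SD, n = 6 each). AT4G24160, a hydrolase-fold protein that acylates lysophosphatidic acid, lay just inside the threshold at 1.04 ± 0.20 (SE), with deposited values of 0.208, 0.423 and 0.565 in prors1, against 0.0330, 0.102 and 0.106 in WT.

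The remaining 19 members have no role stated here, although some carry a recognised domain. AT4G35660, with a domain of unknown function, had the largest difference of the members measured above the floor on every array. It was deposited at 10.3, 13.6 and 14.4 (lowest, median and highest) in prors1, against 2.33, 2.97 and 3.51 in WT. After scaling its lowest prors1 value was 3.49 and its highest WT value 1.97, and replicates 5 and 6 were among the highest of both genotypes. AT1G73470 had deposited values of 0.70, 0.889 and 1.01 in prors1, against 0.103, 0.146 and 0.17 in WT, and scaled ranges of -0.91 to -0.16 in prors1 and -2.57 to -1.77 in WT, which leaves a clear gap. AT4G22370 was deposited at 0.405, 0.708 and 0.968 in prors1, against 0.0169, 0.151 and 0.188 in WT. WT replicate 5 was far below the other WT arrays for this gene, and the difference was 1.31 without replicate 5 of both genotypes, against 1.56 with it. AT3G25680 was at 0.951, 0.994 and 1.19 in prors1, against 0.174, 0.215 and 0.284 in WT, and its scaled prors1 values were tight, at -0.20 ± 0.11 in prors1 and -1.62 ± 0.27 in WT (SD, n = 6 each).

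In 3 of these genes WT was at the floor on at least 5 arrays, so the differences are set by it. AT5G50350 was listed at 0 on 5 WT arrays and at 0.0293 on the array of WT replicate 6, against 0.231, 0.348 and 0.450 (lowest, median and highest) in prors1. AT3G52550 was at the floor on all 6 WT arrays and ranged from -3.54 to -2.23 in prors1. AT2G37880, with another domain of unknown function, ranged from -3.69 to -2.38 in prors1 and was above the floor in WT only on the array of replicate 3, where its -3.69 met the lowest prors1 value. AT2G46300, of a family of hydroxyproline-rich glycoproteins, was deposited at 0.367, 1.0 and 1.55 in prors1, against 0.00834, 0.155 and 0.316 in WT. These deposited values did not overlap, but the scaled ones did, at -1.47 to 0.37 in prors1 and -4.42 to -1.27 in WT, with WT replicate 1 at the floor.

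Another 7 genes without a stated role kept the genotypes apart after scaling. AT1G03660 was at 0.19 ± 0.18 in prors1 and -1.15 ± 0.19 in WT (SD, n = 6 each), and AT5G65250 at -1.01 ± 0.15 in prors1 and -2.12 ± 0.15 in WT (SD, n = 6 each). AT4G23080 was at -1.06 ± 0.08 in prors1 and -2.32 ± 0.34 in WT (SD, n = 6 each), and AT3G54680 at -1.67 ± 0.39 in prors1 and -2.97 ± 0.21 in WT (SD, n = 6 each). All 4 were above the floor on every array. AT3G20490 differed by 1.62 ± 0.25, AT2G20920 by 1.33 ± 0.35 and AT1G35210 by 1.05 ± 0.33 (SE), each with at least 1 WT array at the floor. The genotypes overlapped for the last 4 genes, AT4G16490, an armadillo-repeat protein gene, AT3G56500, AT2G46190 and AT1G17744, whose differences were 1.23 ± 0.35, 1.17 ± 0.35, 1.16 ± 0.38 and 1.14 ± 0.50 (SE). For AT4G16490 the differences within samples 1-2, 3-4 and 5-6 were 1.52, 2.11 and 0.05, so samples 5 and 6 contributed almost nothing to it.

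Samples numbered 1-2, 3-4 and 5-6 were closer to each other than to the rest of their genotype over the array. Across probes never at the floor, the SD of the log2 ratio between 2 samples of such a set was 0.37 to 0.45 in prors1 and 0.35 to 0.42 in WT, and between samples of different sets 0.50 to 0.76 in prors1 and 0.43 to 0.53 in WT. Over the 29 members never at the floor these ranges overlapped, at 0.25 to 0.73 within and 0.33 to 0.95 between sets in prors1, and 0.31 to 0.77 within and 0.43 to 0.90 between sets in WT. Each member was also compared within these sets, with 2 samples of each genotype in a set. The median member difference was 1.40 in samples 1-2, 1.39 in 3-4 and 1.31 in 5-6. The difference was 1 or more for 45 members in samples 1-2, for 41 in 3-4 and for 35 in 5-6, and for 26 members in every set. Of all single-gene probes 11.0%, 13.0%, 9.25% and 4.62% met these conditions in the same order. It was above 0 in every set for 47 members, the exceptions being AT3G13150, IAA31 and AT2G17670, and for 28.8% of the single-gene probes. The set differences are parts of the contrast that chose the members, so their counts are a description only. Medians over the 50 members on single arrays were -1.47 and -1.41 for prors1 replicates 5 and 6 and -1.15 to -0.98 for prors1 replicates 1 to 4, against -2.78 to -2.43 in WT. Over all single-gene probes the array medians were -2.15 to -2.12 in prors1 and -2.22 to -2.11 in WT.

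**Figure D4:**
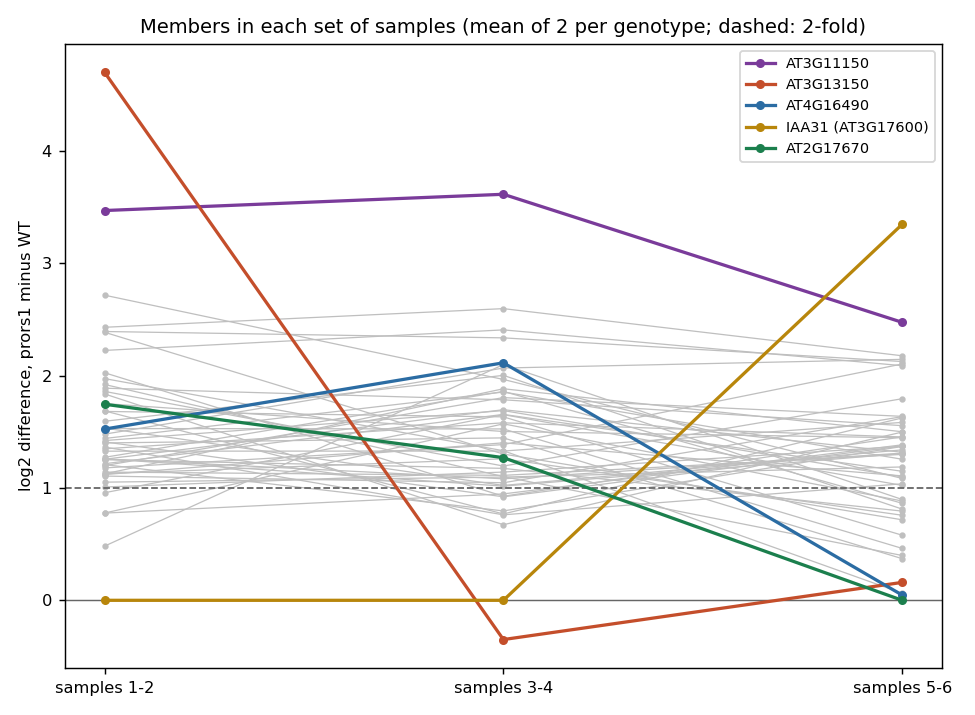
Log2 difference, prors1 minus WT (vertical), of each member within samples 1-2, 3-4 and 5-6, each point from 2 samples per genotype, with lines that only join the points of one gene. AT3G13150 is high in samples 1-2 alone and IAA31 in samples 5-6 alone, while AT4G16490 and AT2G17670 are near 0 in samples 5-6.

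Of the 50 members, 35 stayed at 1 or more when any replicate number, or any of the 3 sets, was left out of both genotypes. The difference of 11 members fell under 1 without some replicate number, and that of 15 without some set. Each leave-out keeps most arrays of the contrast that chose the members, so these counts are a description only. The same counts were not made for the other single-gene probes. Besides AT3G13150, IAA31, AT2G17670, AT4G16490 and AT3G06570, the difference moved by over 1.5 times for AT2G46190 (0.69 without samples 3 and 4) and AT1G17744 (0.75 without samples 1 and 2). AT4G16490 was at 0.78 without samples 3 and 4, AT3G06570 at 0.70 without samples 1 and 2, and AT2G17670 at 0.63 without samples 1 and 2.

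Variation from sample to sample within a genotype was compared as well. Over the 29 members never at the floor, the deviations from the genotype means, which do not depend on the genotype difference, had a median Pearson correlation of 0.02 over 406 gene pairs, with the middle 50% between -0.30 and 0.35. Over the 461 single-gene probes never at the floor the median was -0.000734, with the middle 50% between -0.35 and 0.35. All pairs share the same 12 arrays, and these values are a description without a test.

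The threshold of 1 ran through a continuous range. Just inside it were AT3G18870 at 1.05, AT4G24160 at 1.04 and AT2G17670 at 1.005, and just outside it AT5G61470 at 0.998, AT5G17630 at 0.997 and AT5G41960 at 0.996. AT2G17670 was deposited at 0, 0.395 and 0.628 (lowest, median and highest) in prors1, against 0, 0.0402 and 0.122 in WT, with overlap. The genes outside are no members. AT5G61470 had deposited values of 0.425, 0.704 and 0.995 in prors1, against 0.114, 0.143 and 0.365 in WT. AT5G17630 had 0.599, 0.894 and 1.11 in prors1, against 0.172, 0.241 and 0.276 in WT, and AT5G41960 had 0.192, 0.346 and 0.512 in prors1, against 0.0229, 0.0751 and 0.145 in WT. None of these 3 overlapped as deposited. After scaling AT5G17630 had means of -0.49 ± 0.18 in prors1 and -1.49 ± 0.17 in WT (SD, n = 6 each) without overlap, while the other 2 genes outside overlapped, and AT2G17670 had means of -2.60 ± 1.43 in prors1 and -3.60 ± 0.77 in WT (SD, n = 6 each).

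How many genes doubled depended on the scaling. All 50 members were higher in prors1 under each of 4 scalings, and 31 were at 1 or more under all 4. The scalings start from the same values that chose the members, so these counts are a description only. Shares under all 4 scalings were not counted over the single-gene probes. On the values as deposited all 50 were at 1 or more, where 46.8% of single-gene probes were, with the median single-gene probe itself at 0.93, and 44 members lay at least 1 above that median. Divided by array medians, 39 members were at 1 or more (10.5% of single-gene probes), and after cyclic loess 42 (8.24%). The 11 members under 1 after division by array medians had, with 1 exception, all been above the floor on every array: AT4G19900 stood at 0.10 there, AT4G39690 at 0.40, CML30 at 0.43, AT3G18870 at 0.48 and AT2G39100 at 0.65. AT2G46050, AT1G03660, chr31, AT5G10910, AT3G13150 and AT4G35660 followed, at 0.84 to 0.96. The 8 members under 1 after cyclic loess were IAA31 at 0.53, AT2G17670 at 0.57, AT3G44610 at 0.72, and AT3G25410, AT1G51550, AT1G35210, AT1G17744 and AT4G24160 at 0.97 to 0.99.

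**Figure D5:**
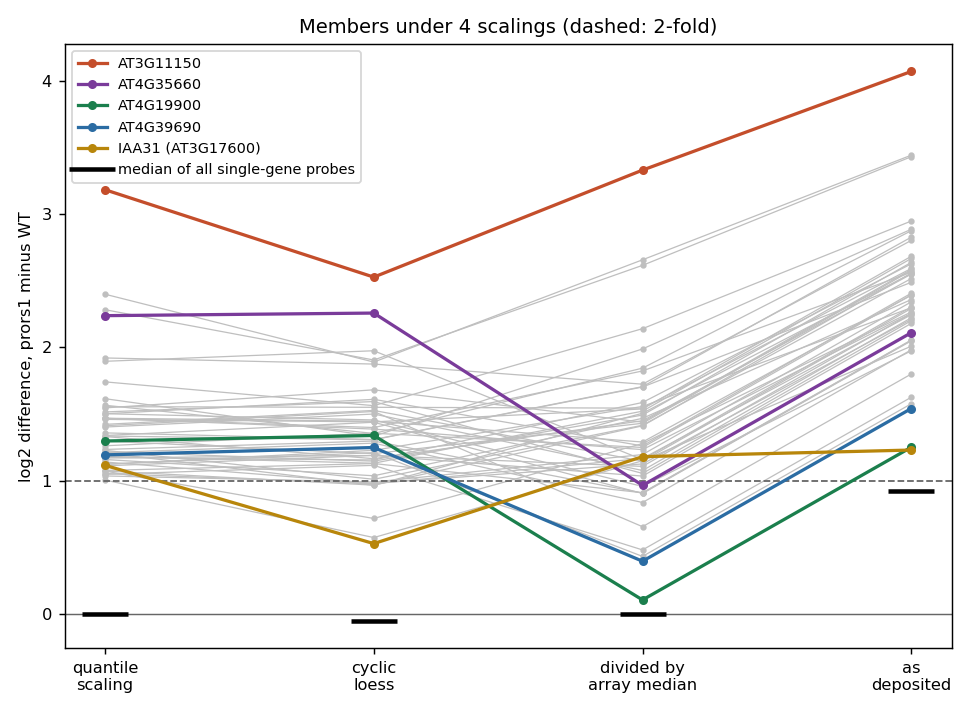
Log2 difference, prors1 minus WT (vertical), of the 50 members under 4 ways of scaling the arrays, with lines that join the points of one gene and black bars at the median of the 692 single-gene probes. AT4G19900 moves from 1.30 after quantile scaling to 0.10 after division by array medians, and AT3G11150 stays the highest member under every scaling.

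Features that the selection did not use were set beside those of all single-gene loci. The median length of the gene on the chromosome was 2024 bases for the 50 members and 2146 bases for the 690 single-gene loci in the TAIR10.1 gene table. A single transcript was listed for 39 members (78.0%), against 59.9% of those loci. Chromosomes 1 to 5 held 8, 9, 14, 11 and 8 of the members, where the single-gene loci fell at 25.2%, 17.8%, 18.8%, 17.4% and 20.7%. No 2 members were neighbours: the closest were AT2G46190 and AT2G46300 with 11 protein-coding genes between them, then AT2G46050 and AT2G46190 with 12, and AT1G73470 and AT1G73740 with 28. These counts are descriptions without a test.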

How the data were processed

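The 12 samples, 6 prors1 and 6 WT, were grouped by their titles. The deposited table gives 1 intensity per probe and sample on a linear scale, and the labels do not record how the authors made these deposited intensities. Probes were named from the platform annotation and 691 of the 692 probes with 1 gene were matched to the TAIR10.1 gene table, used for names, gene length and gene order only.

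Columns were quantile-scaled, a floor of 0.0467 was set at the 5th percentile of the positive values, 13.7% of values lay at it, and values were put on the log2 scale. Members were chosen by the difference of genotype means. SEs and background calls come from limma 3.58.1 under R 4.3.3 (its linear model and eBayes on 3304 probes above the floor on at least 1 array, genotype only, two-sided, Benjamini-Hochberg, 0.05), a fit tested on simulated data. In that fit 136 single-gene probes were called higher and 134 lower.

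Members and lists were chosen with earlier results of these data known. Same-numbered prors1 and WT samples deviated together (r of 0.35 to 0.49 over 2386 probes above the floor throughout). Differently numbered samples were not compared between the genotypes in this way. Whether the samples pair by number or only by set was therefore not tested, and the labels do not explain the numbers. The number of arrays limits the precision. Values are given as lowest, median and highest of 6 for the 4 marker genes AT4G35660, AT4G18180, AT1G73470 and AT1G73740, the 10 largest differences never at the floor, the 5 largest with floor values, 3 genes on each side of the threshold, the 5 highest prors1 means and up to 2 genes of each class; others are given more briefly. Family counts were made from names in the gene table alone, and protein and promoter sequences were not used here.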

Additional observations from a re-analysis of the deposited data

Results flagged for a closer look

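In 11 of 97 groups of 6 samples, 1 sample stood far from the others on the scaled log2 values. In 4 of the 11 the other 5 samples were tied at the floor, which sets any remaining sample apart by construction. Among the 93 groups with fewer than 5 samples at the floor it was 7, where chance gives about 1 in 20 groups, and 3 further groups had all samples at the floor. Low values in prors1 stood apart for AT1G53050 in replicate 6 (-3.59, with the next at -0.50), and in replicate 5 for AT4G16490 (-3.04, with the next at -2.08), AT5G65250 (-1.29, with the next at -1.05) and AT4G24160 (-2.25, with the next at -1.77). In WT, AT4G22370 was low in replicate 5 (-4.07, with the next at -2.67) and AT1G35210 in replicate 1, where it was at the floor (-4.42, with the next at -2.58).

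High values stood apart for AT3G15140 in replicate 4 of both genotypes, at -1.11 in prors1, with the next at -1.94, and at -3.83 in WT, with the other 5 at the floor. In WT, AT5G50350 in replicate 6 (-3.71) and AT2G37880 in replicate 3 (-3.69) were each the one array above the floor. In prors1, IAA31 (AT3G17600) was at 2.27 in replicate 6 and at the floor on the other 5 arrays.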

How the results depend on the processing

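With the values as deposited, 319 genes met the rule in place of 50, among them all 50 members (15.7% of the 319), the median member difference was 2.35, and 431 single-gene probes were called higher and 18 lower. The rule gave 69 genes with arrays divided by their medians (39 of them members, 78.0% of the members and 56.5% of the 69), 51 after cyclic loess (42 of them members), 68 with a floor at the 1st percentile and 44 at the 10th, and 50 with rows of one locus averaged. With samples 1-2, 3-4 and 5-6 averaged, 77 single-gene probes were called higher and 58 lower, with these sets as a random block 96 and 85, and at a threshold of 0.01 97 and 82. With the replicate number as a block 162 were called higher and 162 lower. The block changed the call of CML41 but not those of GH9B8, GH9B11 and GH9B12. Leaving out a replicate number or a set of samples gave 52 to 68 genes by the rule, median member differences of 1.25 to 1.47, 89 to 154 single-gene probes called higher and 66 to 150 called lower. Without the dimmest 25% of probes 128 were called higher and 115 lower. The difference of AT3G13150 reversed to -0.095 without replicates 1 and 2 and was 2.43 without replicates 3 and 4, with WT listed at 0 on the arrays of replicates 1 and 2. The cause of these shifts was not tested. For the 21 members with floor values, the size of the difference depends on where the floor is set.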
